A study of Caenorhabditis elegans with 11 samples.

Results

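The cuticlins are structural proteins of the nematode cuticle, and 34 genes of this family were measured here. They were chosen by name alone, as the genes with the symbol cut or cutl and a number in the array's probe annotation, each with its brightest probe set among those assigned to a single gene. The 34 genes, 6 cut and 28 cutl genes, stand among 17118 genes with such a probe set, and the RefSeq annotation lists 35 genes with these names. Only cutl-23 had no probe set of its own and was not analysed here. The RNA came from whole Caenorhabditis elegans hermaphrodites at the fourth larval stage, L4, grown on E. coli OP50 after bleaching and overnight hatching, and was hybridized to Affymetrix C. elegans arrays. BW1940, labelled dbl-1, carries the integrated transgene ctIs40, which adds copies of wild-type dbl-1 beside a sur-5::gfp marker, and is represented by 5 arrays. LT186, labelled sma-6, carries sma-6(wk7), an early stop codon that truncates SMA-6, the type I receptor for DBL-1, and is represented by 6 arrays. The titles call each array a biological replicate and do not say whether they came from separate cultures, so p-values measure the spread between these arrays. Both strains were derived from N2, each is a single line, and an N2 control was not analysed here, so an effect of more ligand and an effect of less receptor cannot be told apart.

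The cuticle is an extracellular coat that the hypodermis and the seam cells secrete anew for every stage. Collagens make up most of it. Cuticlins are what remains after collagens are dissolved, and they are held together by crosslinks that do not reduce. Most carry a zona pellucida (ZP) domain, which lets secreted proteins polymerize at a cell surface, and several shape the alae, the ridges that run along the body of the first larva, the dauer larva and the adult. During L4 the animal builds the adult cuticle beneath the larval one. DBL-1 is a BMP-like ligand that acts through SMA-6 in the hypodermis to set body size, so the comparison of BW1940 with LT186 asks whether genes of the cuticle follow the level of this signal.

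Of the genes altered in the strains, sma-6 separated the arrays as labelled. On the brighter probe set of sma-6 every BW1940 array, 82.4 to 128, was above every LT186 array, 26.5 to 33.6, with a log2 fold change of 1.42 (limma adjusted p = 0.00031). For dbl-1 the log2 fold changes on its 2 probe sets were 0.40 and 0.78, and neither passed after adjustment (limma adjusted p = 0.318 and 0.117).

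No cuticlin gene passed the test between the strains after adjustment. The values are intensities on a linear scale that the authors set to a global level of 100 per array. Values below 0 were set to 0, 10 was added, and the log2 values were compared with limma for the 18801 probe sets whose value reached 10 on 2 or more of the 11 arrays. Of the 34 genes, 30 were tested and 4 stayed below this filter. Of the 30, 0 passed at an adjusted p under 0.05 (Benjamini-Hochberg over all probe sets tested), where 1.02% of all probe sets did. At an unadjusted p under 0.05 there were 4, all higher in BW1940. That is 13.3% of the 30, against 16.7% of all probe sets tested, or 11.7% when only probe sets higher in BW1940 are counted. The share of cuticlin genes is thus near that of the whole array and is no result about the family. Of the 30 log2 fold changes, BW1940 over LT186, 19 were above 0 and 11 below, with a median of 0.08. Over all probe sets 60.7% were above 0 and the median was also 0.08, and after quantile normalization the medians were 0.03 for the cuticlins and 0.0026 for all. The smallest adjusted p among the 30 genes was 0.135.

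The 95% intervals of the fold changes show how far the arrays could resolve a difference. They were as narrow as 0.27 on each side of the log2 fold change and as wide as 1.14, with a median of 0.62. These widths hold for log2 values after 10 was added, which shrinks both fold changes and intervals of dim genes. Of the 30 genes, 12 had means under 20. The narrowest interval was that of cutl-27, whose arrays spanned 6.94 to 14.7, so it does not show that small changes in its RNA were resolved. In 26 of the 30 genes the interval included 0. A log2 fold change under about 0.62, the median distance from estimate to interval end, would therefore often not have reached an unadjusted p under 0.05. The adjusted threshold is stricter, so larger changes could also be missed. The gene cut-2, at 0.61, had a limma adjusted p of 0.245. Because the RNA came from whole animals, fewer cells of a type and less RNA per cell cannot be told apart in any of these values.

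**Figure D1:**
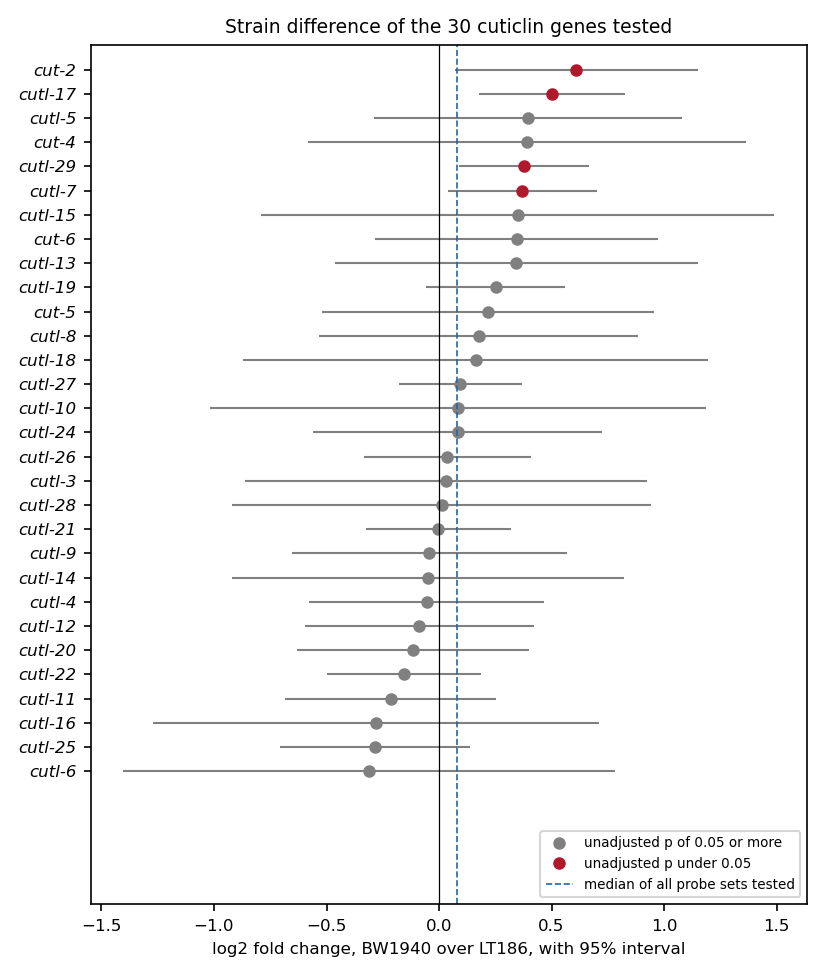
Log2 fold change of each of the 30 cuticlin genes tested, BW1940 over LT186 (x axis), with its 95% interval from limma, 1 gene a row. The 4 genes at an unadjusted p under 0.05 are in red, the dashed line is the median of all probe sets tested at 0.08, and the intervals of the other 26 genes include 0.

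The gene cut-2 was one of the 4. It encodes a cuticlin without a ZP domain whose tyrosines can be crosslinked. Its values in BW1940 replicates 1 to 5 were 1029, 1596, 759, 1417 and 1288, and in LT186 the lowest, median and highest were 560, 804 and 1054. The arrays of the strains overlapped, since BW1940 replicate 1 stood at 1029 beside LT186 replicates 3 and 6, at 1054 and 1018, and BW1940 replicate 3 lay below them. Mean cut-2 was 1218 ± 329 (SD, n = 5) in BW1940, which is 1.52-fold the mean of 800.2 ± 243 (SD, n = 6) in LT186. The log2 fold change was 0.61 (standard error, SE, 0.25, interval 0.07 to 1.15, unadjusted p = 0.0300, limma adjusted p = 0.245). The exact permutation p was 0.0519, two-sided over the 462 divisions of the arrays, for which 0.0022 is the smallest possible value. The unadjusted p was above 0.05 with quantile normalization, where the log2 fold change was 0.33 (limma adjusted p = 0.693), and with array weights, where it was 0.34 (limma adjusted p = 0.403). The probe set of cut-2 is of the kind that the manufacturer marks as able to bind related transcripts.

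The gene cutl-17 was the only one of the 30 whose arrays did not overlap between the strains, a property of 4.41% of all probe sets tested, and of 2.95% with BW1940 the higher strain. BW1940 replicates 1 to 5 had 14.1, 12.4, 10.1, 10.6 and 16.6, and LT186 had 2.37, 5.85 and 9.98 as the lowest, median and highest. Every BW1940 array was above every LT186 array, but by a margin of less than 1 unit and at values near the filter of 10. The means were 12.7 ± 2.66 (SD, n = 5) in BW1940, against 6.19 ± 3.0 (SD, n = 6) in LT186, with a log2 fold change of 0.50 (SE 0.15, limma adjusted p = 0.135, exact permutation p = 0.0087, two-sided). At such low values the fold change rests on the offset added before the log, and it was 0.70 with an offset of 5, 0.33 with 20 and 0.16 with 50, while the log2 ratio of the linear means was 1.04. Rescaling the arrays by quantiles or by array medians left 0 genes without overlap. Without BW1940 replicate 2, or without BW1940 replicate 4, 2 genes did not overlap. The share of all probe sets without overlap was not computed for these settings, and it is easier to reach with fewer arrays. These counts are therefore no result about the family.

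For cutl-29 and cutl-7 most BW1940 arrays stood above most LT186 arrays. The gene cutl-29 had 53.4, 48.2, 64.2, 38.8 and 60.1 in BW1940 replicates 1 to 5, against 32.4, 36.8 and 45.3 as the lowest, median and highest in LT186. Only BW1940 replicate 4 fell among the LT186 arrays. Its log2 fold change was 0.38 (SE 0.13, limma adjusted p = 0.184, exact permutation p = 0.0130, two-sided). The other probe set of cutl-29 went the opposite way, with means of 30.9 in BW1940 and 38.0 in LT186 and a log2 fold change of -0.23 (limma adjusted p = 0.720), so the array does not give this gene a direction. The gene cutl-7 had 31.1, 21.4, 31.2, 26.8 and 35.8 in BW1940, against 12.2, 21.6 and 26.2 in LT186 as the lowest, median and highest. BW1940 replicate 2 lay inside the LT186 range and the other BW1940 arrays above it. The log2 fold change was 0.37 (SE 0.15, limma adjusted p = 0.247, exact permutation p = 0.0281, two-sided). Of these 4 genes, cutl-17 and cutl-29 stayed under an unadjusted p of 0.05 whichever single array was left out. The gene cut-2 did not without BW1940 replicate 2, 4 or 5 or without LT186 replicate 2, 4 or 5, and cutl-7 did not without BW1940 replicate 1, 3 or 5 or without LT186 replicate 3 or 5. Their log2 fold changes ranged from 0.50 to 0.77 for cut-2 and from 0.28 to 0.45 for cutl-7 with 1 array left out, and the count of genes was 2 without BW1940 replicate 5 or LT186 replicate 5.

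**Figure D2:**
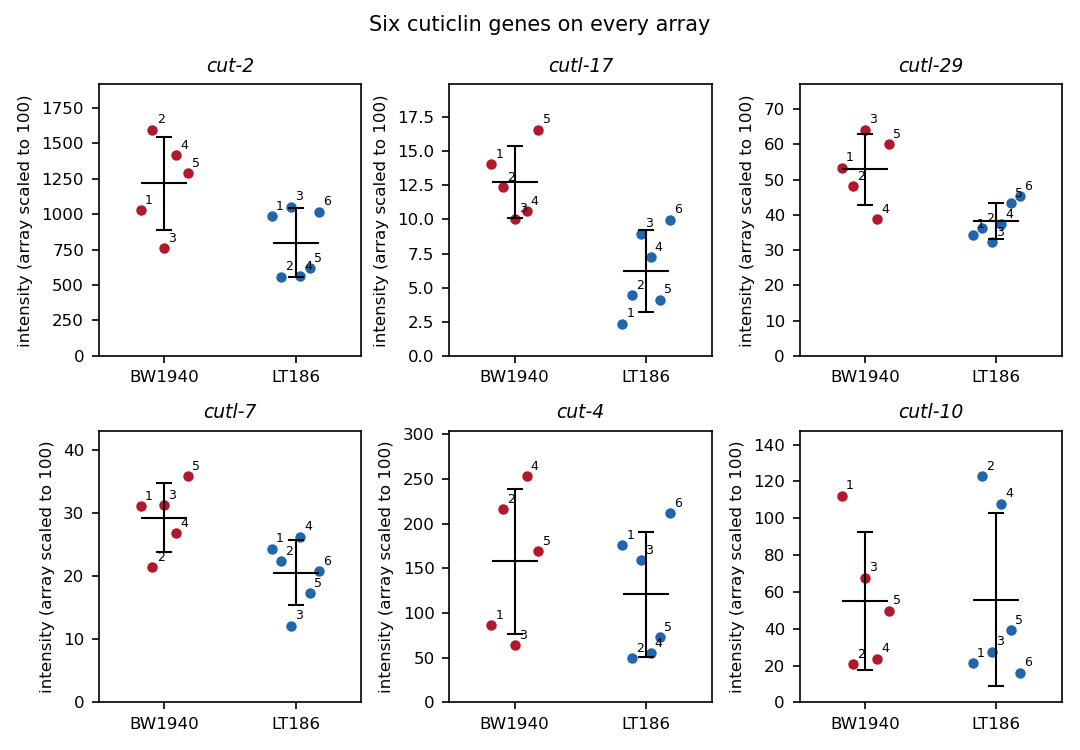
Intensity on a linear scale (y axis, arrays scaled to 100) of cut-2, cutl-17, cutl-29, cutl-7, cut-4 and cutl-10 on every array, BW1940 left and LT186 right, with the replicate number beside each point and the mean and SD as black bars. In cutl-17 the BW1940 arrays start at 10.1 and the LT186 arrays end at 9.98, while in cut-4 and cutl-10 the arrays of both strains spread over the same range.

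Of the cut genes known for the cuticle and alae of other stages, cut-1 and cut-3 stayed below the filter and cut-5 and cut-6 were tested. The gene cut-1, which encodes a component of the dauer cuticle, had -1.52, 2.14, 0.0115, 3.31 and 6.93 in BW1940 replicates 1 to 5, against a range of -21.2 to 2.93 in LT186. The gene cut-3, needed for the alae of the first larva, had 6.92, 4.11, 6.81, 6.15 and 6.72 in BW1940, against a range of 3.14 to 6.41 in LT186. Both were below the filter on every array, as were cutl-2 and cutl-1. These 4 genes did not enter the fit. For cut-6, which acts in the body shape and alae of the dauer larva, BW1940 replicates 1 to 5 had -1.96, 17.7, 9.68, 15.2 and 5.37, and LT186 had -2.26, 5.84 and 11.2 as the lowest, median and highest. The groups overlapped, with a log2 fold change of 0.34 (SE 0.29, limma adjusted p = 0.626, exact permutation p = 0.301). For cut-5, which acts in the alae of the first larva and the dauer larva, BW1940 had 10.2, 26.6, 28.8, 35.5 and 14.2 and LT186 had 4.16, 18.7 and 38.9 as the lowest, median and highest. Here too the groups overlapped, with a log2 fold change of 0.22 (limma adjusted p = 0.833).

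The gene cut-4 varied widely between arrays of the same strain. BW1940 replicates 1 to 5 had 86.3, 216, 64.4, 253 and 169. LT186 replicates 1 to 6 had 176, 49.9, 159, 55.0, 73.2 and 212. Each strain thus held arrays under 90 and arrays over 150, and the lowest and highest array of all differed 5.07-fold. The log2 fold change of 0.39 had an interval of -0.58 to 1.36 (limma adjusted p = 0.747, exact permutation p = 0.426).

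This spread within strains was shared by much of the family. The SD of log2 values within strains had a median of 0.51 over the 30 genes and of 0.31 over all probe sets tested, and 22 of the 30 were above the median of all. Strain accounted for a median of 3.53% of the variance of a cuticlin gene and for 9.11% over all probe sets. These shares are not corrected for the number of arrays, so noise alone also gives some share to strain. The genes above the 90th percentile of all probe sets by this SD were cutl-15 (0.96), cutl-10 (0.93), cutl-6 (0.92), cutl-18 (0.87) and cutl-16 (0.83). At the other end, cutl-27 had 0.18 and cutl-29 0.19. Values of different probe sets cannot be set against each other as levels of RNA, and only the spread of each gene about its own mean is compared here, with no matching on brightness.

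**Figure D3:**
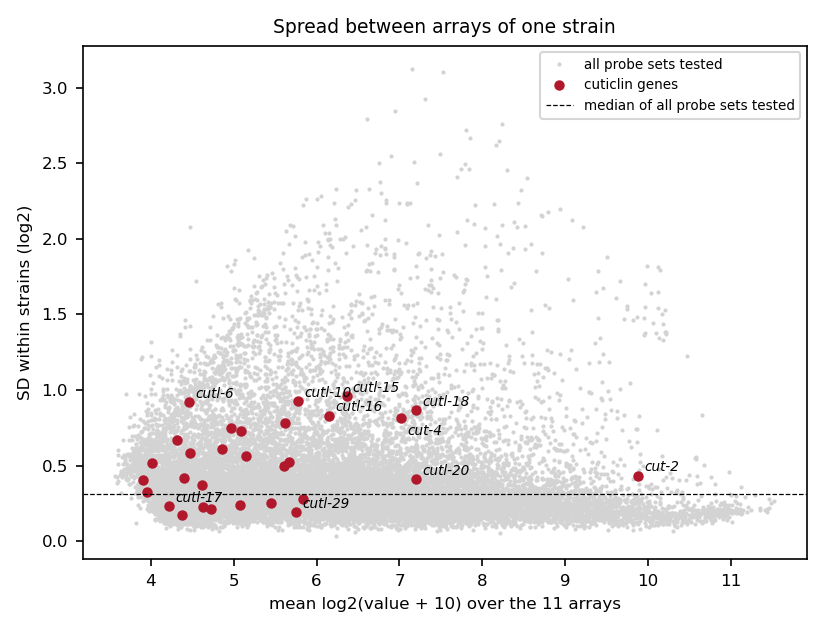
SD of log2 values within strains (y axis) against the mean log2(value + 10) over the 11 arrays (x axis), for all 18801 probe sets tested in grey and the 30 cuticlin genes in red. The dashed line is the median SD of all probe sets, 0.31, and 22 of the 30 cuticlin genes lie above it.

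The arrays that set this spread were not divided by strain. LT186 replicates 2 and 4 resembled each other more than any other pair of arrays did, with a median absolute log2 difference of 0.114 against 0.18 for the next pair. Sperm transcripts were also lowest there. The sperm score, here the mean log2 value of 37 genes of the msp, ssp and nspd families of sperm proteins, was 5.51 in LT186 replicate 4 and 5.86 in LT186 replicate 2. BW1940 replicates 1 and 3 scored 7.46 and 8.18, and every other array scored from 9.30 to 9.83. Sperm form in the hermaphrodite gonad during L4. The collagen gene col-19, which is switched on with the adult cuticle, also parted the arrays. Its values were 83.6, 292, -13.4, 721 and 645 in BW1940 replicates 1 to 5, against 327, -29.3, 178, -30.7, -2.31 and 858 in LT186 replicates 1 to 6. Both strains therefore held arrays with col-19 below 0 and arrays well above it. The gene belongs to a list of 14 markers of seam and hypodermis and was picked after its values were seen. Of the 14, 4 had LT186 replicates 2 and 4 both among the 3 lowest arrays, col-19 among them. Another 8 had both among the 3 highest. No label tells how far into L4 each culture was, and its part in the spread was not tested.

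In 7 of the 30 genes (23.3%) LT186 replicates 2 and 4 were both among the 3 highest of the 11 arrays, near the 19.6% of all probe sets tested, so the count is no result about the family. This criterion was chosen after the values were seen, and the counts of this kind are a description. The 7 genes were cutl-3, cutl-10, cutl-11, cutl-16, cutl-20, cutl-24 and cutl-25. The probe set of cutl-10 is, like those of cutl-9 and cutl-26, of a kind that may be shared with other transcripts. The gene cutl-10 had 112, 20.6, 67.8, 23.8 and 49.9 in BW1940 replicates 1 to 5 and 21.2, 123, 27.5, 108, 39.3 and 16.2 in LT186 replicates 1 to 6. Its 3 highest arrays were thus 1 of BW1940 and 2 of LT186, and its highest was 7.58-fold above its lowest, while the log2 fold change between strains was 0.08 (interval -1.02 to 1.19, limma adjusted p = 0.967). The gene cutl-16 had 102, 21.8, 86.5, 44.1 and 47.1 in BW1940 and 30.6, 142, 54.3, 138, 90.8 and 26.4 in LT186. The same 3 arrays were again the highest, with a 6.53-fold range and a log2 fold change between strains of -0.28 (limma adjusted p = 0.843). For cutl-3 these arrays, BW1940 replicate 1 and LT186 replicates 2 and 4, had 40.1, 49.4 and 47.9, and BW1940 replicate 3 had 44.6, while the lowest array, LT186 replicate 6, had 7.33.

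All 4 probe sets of cutl-20 had LT186 replicates 2 and 4 among their 3 highest arrays. The brightest had 176, 83.6, 165, 132 and 118 in BW1940 replicates 1 to 5 and 120, 218, 112, 208, 119 and 115 in LT186 replicates 1 to 6. LT186 replicates 2 and 4 and BW1940 replicate 1 were the highest. The log2 fold change was -0.12 (SE 0.24, limma adjusted p = 0.881). Of its 3 other probe sets, 2 had log2 fold changes of 0.11 and 0.13 and the dimmest -0.65, none with an adjusted p below 0.519 by limma. All 3 are of kinds that may bind or be shared with other transcripts, and the dimmest had values from -10.8 to 46.0. The direction of cutl-20 between strains is thus not settled by the array. Both probe sets of cutl-24 also had LT186 replicate 2 as their highest array, at 68.4 and 42.2.

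In another 8 of the 30 genes (26.7%, against 17.9% of all probe sets tested) LT186 replicates 2 and 4 were both among the 3 lowest. These were cut-2, cut-4, cut-6, cutl-5, cutl-8, cutl-15, cutl-18 and cutl-28. The gene cutl-15 had 30.6, 169, 31.9, 158 and 133 in BW1940 replicates 1 to 5 and 94.4, 28.9, 139, 25.2, 60.9 and 96.1 in LT186 replicates 1 to 6. Both strains held arrays near 30 and arrays above 130, a 6.70-fold range, and the log2 fold change was 0.35 (SE 0.52, limma adjusted p = 0.825). The gene cutl-5 had 20.04, 33.5, 24.9, 44.1 and 36.98 in BW1940, against 4.01, 25.6 and 38.7 as the lowest, median and highest in LT186, with a log2 fold change of 0.39 (SE 0.31, limma adjusted p = 0.603, exact permutation p = 0.299). Its lowest 2 arrays were again LT186 replicates 2 and 4, at 4.01 and 13.2. For cut-2 the same arrays, at 560 and 562, were the lowest of all. Without them and BW1940 replicate 1, a choice made after the data were seen, its log2 fold change was 0.43 with an unadjusted limma p of 0.133.

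Within the genes low on these arrays, members did not share 1 profile. In cut-4 and cutl-15 BW1940 replicate 3 was also low, at 64.4 and 31.9, and LT186 replicate 5, at 73.2 and 60.9, lay under the median of LT186. In cutl-18 and cutl-28 both of these arrays were high. The gene cutl-18 had 59.0, 218, 198, 176 and 144 in BW1940 replicates 1 to 5 and 156, 56.9, 277, 50.3, 280 and 123 in LT186 replicates 1 to 6. LT186 replicates 3 and 5 were the highest. The log2 fold change of 0.16 (limma adjusted p = 0.924) was below 0 when either LT186 replicate 2 or 4 was left out, at -0.048 and -0.079. The gene cutl-28 had 15.6, 52.3, 74.2, 50 and 27.1 in BW1940 and 47.0, 15.3, 75.7, 15.98, 92.2 and 32.9 in LT186, so its 3 highest arrays were BW1940 replicate 3 and LT186 replicates 3 and 5. The gene cutl-6 was high on few arrays. It had 49.8 in BW1940 replicate 3 and no more than 8.69 in the other BW1940 arrays, against 57.1 in LT186 replicate 5 and no more than 19.7 in the other LT186 arrays. Its log2 fold change of -0.31 (SE 0.50, limma adjusted p = 0.840) was 0.0014 with array weights. BW1940 replicate 3 and LT186 replicate 5 were both among the 3 highest arrays in cutl-6, cutl-9 and cutl-28, 3 of the 30 genes, and in 5.77% of all probe sets tested.

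**Figure D4:**
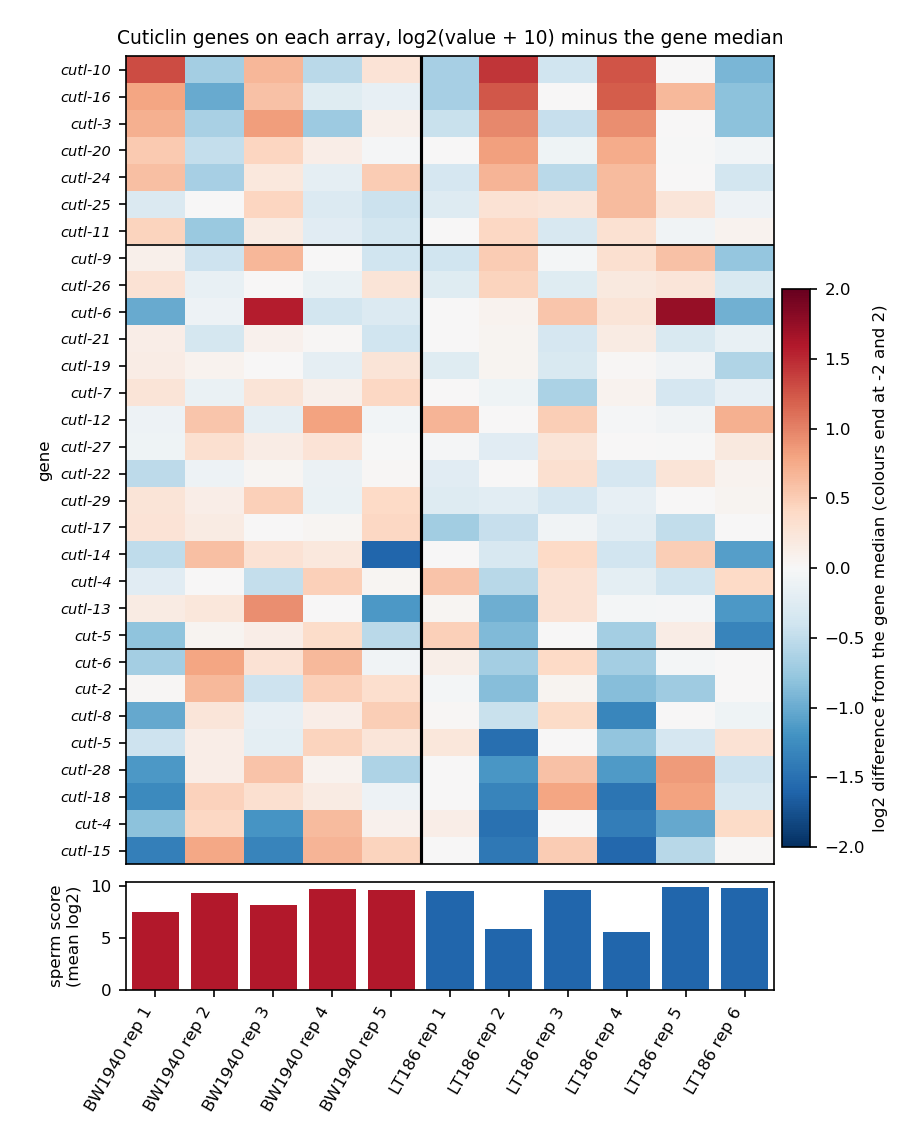
Log2(value + 10) minus the gene's median over the 11 arrays, as colour, for the 30 cuticlin genes tested (rows) on each array (columns, BW1940 left of LT186), with the sperm score of each array as bars on a log2 scale. Horizontal lines set off the 7 genes with LT186 replicates 2 and 4 among the 3 highest (top) and the 8 genes with both among the 3 lowest (bottom).

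In the RefSeq gene order (WBcel235) cutl-26 and cutl-28 on chromosome IV are separated by 1 protein-coding gene. The gene cutl-28 had a 6.02-fold range over the arrays and cutl-26 a 1.89-fold range, with LT186 replicate 2 the lowest array for cutl-28 and the highest for cutl-26. On chromosome V cut-2 and cutl-1 are separated by 3 protein-coding genes. For cutl-1, which stayed below the filter, the arrays spanned 0.744 to 6.70 in BW1940, against -1.51 to 1.27 in LT186. With no filter its log2 fold change was 0.32 (limma adjusted p = 0.127), in the same direction as that of cut-2. The members lay on all 6 chromosomes, with 9 of them on chromosome II and 7 on chromosome I. These orders come from the annotation and not from the array, for which no label names a genome build.

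None of the remaining genes had an unadjusted p under 0.05. The log2 fold changes of cutl-4, cutl-12, cutl-21 and cutl-27 lay between -0.09 and 0.09, and their arrays spanned 4.49 to 21.5, 1.11 to 12.1, 10.1 to 19.7 and 6.94 to 14.7. For cutl-25 BW1940 replicates 1 to 5 had 2.34, 5.10, 10.3, 2.54 and 1.21, and LT186 had 2.57, 7.85 and 13.4 as the lowest, median and highest, with a log2 fold change of -0.29 (SE 0.19, limma adjusted p = 0.517, exact permutation p = 0.175). The groups overlapped, and these values are near the floor of the array. For cutl-19 the log2 fold change was 0.25 (interval -0.06 to 0.56, limma adjusted p = 0.410). For cutl-8, cutl-11, cutl-13, cutl-14 and cutl-22 the log2 fold changes lay between -0.22 and 0.34, with unadjusted p of 0.334 or more, and for cutl-3, cutl-9, cutl-24, cutl-26 and cutl-28 between -0.04 and 0.08.

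Genes of other ZP-domain proteins, of the molting cycle and of seam and hypodermis did not pass between the strains either. Of 7 genes of ZP-domain proteins outside the cut names, 6 were tested and 0 passed limma's test, 0 also at an unadjusted p under 0.05. The gene noah-1, which encodes a ZP protein of the molting cycle, had 877 ± 144 (SD, n = 5) in BW1940, against 872 ± 251 (SD, n = 6) in LT186. Its relative noah-2 had 383 ± 280 (SD, n = 5) in BW1940, against 406 ± 160 (SD, n = 6) in LT186. Of 13 genes of the molting cycle 0 passed, also at an unadjusted p under 0.05, while 9 had LT186 replicates 2 and 4 both among the 3 lowest arrays and 2 had both among the 3 highest. The brightest were mlt-8, with a log2 fold change of 0.21 (limma adjusted p = 0.813), and osm-11, with -0.17 (limma adjusted p = 0.673). Of 14 markers of seam and hypodermis, the cells that secrete cuticlins, all were tested and 0 passed, also at an unadjusted p under 0.05. Of the 14, 8 had both of these arrays among the 3 highest and 4 had both among the 3 lowest, against 19.6% and 17.9% of all probe sets tested.

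Of 13 genes of crosslinking and collagen processing 0 passed after adjustment. At an unadjusted p under 0.05, 3 were higher in BW1940 and 1 lower, against 11.7% and 5.03% of all probe sets tested. The gene pdi-2, which encodes a protein disulfide isomerase that is also a subunit of the collagen prolyl hydroxylase, had 1216, 1464, 1345, 1202 and 1332 in BW1940 replicates 1 to 5, against 878, 954 and 1042 as the lowest, median and highest in LT186. Its arrays did not overlap, and its log2 fold change was 0.45 (SE 0.10, limma adjusted p = 0.0587, exact permutation p = 0.0022, two-sided). The gene phy-2, a catalytic subunit of the same enzyme, ran the other way without overlap, with a mean of 516 ± 89.6 (SD, n = 5) in BW1940, against 728 ± 151 (SD, n = 6) in LT186, and a log2 fold change of -0.48 (SE 0.16, limma adjusted p = 0.176). The dual oxidase gene bli-3, whose product forms tyrosine crosslinks in the cuticle, had 144 ± 22.9 (SD, n = 5) in BW1940, against 113 ± 7.65 (SD, n = 6) in LT186, with a log2 fold change of 0.31 (limma adjusted p = 0.217), and the disulfide isomerase gene pdi-1 had 0.28 (limma adjusted p = 0.286). The probe sets of pdi-2, phy-2, bli-3 and pdi-1 are, like that of cutl-10, of a kind that may be shared with other transcripts.

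The cuticle collagens of the col family are the nearest family for comparison. Of 128 genes 120 were tested and 0 passed after adjustment. At an unadjusted p under 0.05, 23 were higher in BW1940 and 0 lower, against 11.7% and 5.03% of all probe sets tested. Their median log2 fold change was 0.39, or 0.21 after quantile normalization, against 0.08 and 0.03 for the cuticlins. For all probe sets tested these medians were 0.08 and 0.0026. LT186 replicates 2 and 4 were both among the 3 lowest arrays in 54 of the 120 (45.0%). The share was 26.7% of the cuticlin genes and 17.9% of all probe sets tested, and its part in the medians was not tested. The difference between the families was not tested either.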

How the data were processed

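Affymetrix C. elegans arrays of 5 BW1940 and 6 LT186 samples were compared, grouped by their sample titles. The deposited values are intensities per probe set on a linear scale. The authors wrote the probe intensities with Microarray Suite 5 and converted them in Probe Profiler, which down-weighted uninformative probe pairs and scaled every array to 100. Array medians lay between 34.2 and 40.0. Of 22548 probe sets 20766 carry 1 gene symbol. Values below 0 were set to 0, 10 was added and log2 was taken. limma 3.58.1 (R 4.3.3) was fitted to the 18801 probe sets with at least 10 on at least 2 arrays, with no block or covariate and Benjamini-Hochberg adjustment at 0.05. Single genes also had an exact permutation test (two-sided), in Python 3.11.15. The fit was tested on simulated data. Alternatives were the offset, filter, scaling, replicate block, array weights, moderation, the methods' t-test, a sperm score covariate, the probe set and each array left out. Leaving out 3 arrays of low sperm score and averaging LT186 replicates 2 and 4 were added after the data were seen. The members and gene lists were chosen with earlier results of these data known. Genes are named by nominal p, lack of overlap, brightness, fold change, probe set disagreement and the names cut-1 to cut-6; companion genes by nominal p and brightness. Others, among them the sets defined by LT186 replicates 2 and 4 and col-19, were chosen after their values were seen. The number of arrays limits the precision. Detection p-values were not used here.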

Additional observations from a re-analysis of the deposited data

Results flagged for a closer look

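Among 68 groups of arrays, 5 or 6 arrays of 1 strain for each of the 34 genes, 2 held an array far from the others, and chance gives about 1 in 20. In BW1940 replicate 1 cutl-22 had a value of 21.5, while the other BW1940 arrays lay between 31.7 and 36.6 and LT186 between 26.0 and 47.0. In BW1940 replicate 2 cut-3 had a value of 4.11, while the other BW1940 arrays lay between 6.15 and 6.92 and LT186 between 3.14 and 6.41, all below the filter.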

How the results depend on the processing

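In each of 28 alternatives 0 cuticlin genes passed after adjustment, and the median log2 fold change stayed between 0.01 and 0.12. The count at an unadjusted p under 0.05 was 2 genes, against 4, with the stricter filter (at least 30 on at least 5 arrays), quantile normalization, the replicate block or without the 3 arrays of low sperm score, and 2 to 4 with 1 array left out. It was 5 with no filter, which added cutl-1, and 5 with the sperm score as a covariate, which added cutl-19. With array weights it was 4, with cutl-19 in place of cut-2. The titles do not say whether arrays with the same replicate number belong together. The correlations below cannot decide this, since arrays of the same strain also differed, as in the sperm score. Deviations of same-numbered arrays correlated at -0.69, -0.64, -0.30, -0.59 and 0.10, the block left cut-2 at 0.69 (unadjusted limma p = 0.0787), and with the block 5 probe sets passed over the whole array, against 191. Over the whole array, calls also numbered 1625 with the sperm score as a covariate, 443 with array weights, 416 with no filter, 381 with the t-test that the methods name on log2 values, 366 with an offset of 50, 83 without the 3 arrays and 78 to 151 with 1 array left out. Genes without overlap numbered 0 after quantile normalization or median centring and 1 to 2 with 1 array left out. The matching shares over all probe sets were not computed. With array weights the log2 fold changes of cut-4, cutl-15, cutl-16, cutl-18, cutl-20 and cutl-6 took the other sign, at -0.044, -0.12, 0.15, -0.031, 0.083 and 0.0014. For cutl-18 they were also below 0 with the sperm score as a covariate (-0.057), with LT186 replicates 2 and 4 averaged (-0.064) and without the 3 arrays (-0.11), and ranged from -0.079 to 0.46 with 1 array left out. For cutl-20 the value was 0.056 without the 3 arrays and ranged from -0.22 to 0.031 with 1 array left out, and for the dimmer probe set of cutl-29 it was -0.23. Of the genes of ZP proteins, crosslinking and molting, 1 passed after adjustment with an offset of 20 or 50, no filter, the stricter filter, array weights or the covariate, in each case pdi-2 (adjusted p = 0.0346, 0.0131, 0.0129, 0.0419, 0.0376 and 0.0210 by limma), and with quantile normalization, then phy-2 (adjusted p = 0.0415 by limma), against 0. At that unadjusted threshold the count of these genes was 2 with median centring, the replicate block or without the 3 arrays, against 4, and 2 to 4 with 1 array left out. With quantile normalization the count was 3, made up of bli-3, phy-2 and the molting gene osm-11, whose log2 fold change was then -0.38. The genes pdi-2 and pdi-1 were not among them. The cause of these shifts was not tested.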
